A study of Mus musculus with 4 samples.

Results

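Pml and 8 genes whose proteins reside in or pass through PML bodies (Daxx, Hira, Morc3, Topors, Blm, Rnf4, Hipk2 and Crebbp) were examined in a genome-wide list of chromatin regions labelled by a PML-tethered peroxidase. The genes were taken by name from GENCODE M21, and all 9 were found once each among its 21938 protein-coding genes on the autosomes, X and Y. The series holds 4 samples of E14 mouse embryonic stem cells, a single cultured line grown with serum, leukemia inhibitory factor, CHIR99021 and PD0325901. All 4 carry the APEX-PML knock-in, in which the peroxidase APEX is joined to PML; 2 received the hydrogen peroxide that starts biotin labelling, and 2 did not and served as the negative control. The deposited list is 1 merged set of 26496 peaks on mm10 that gives positions only, so the levels below are numbers and widths of peaks, with no height, no value for any sample, no spread between replicates and no comparison of treated with control cells. Depth is unknown, and whether a peak at these genes depends on hydrogen peroxide was not tested.

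PML is a RING-finger protein that assembles the shell of nuclear bodies, where its attached SUMO groups and SUMO-binding motif hold other proteins. DAXX, with its partner ATRX, and HIRA are chaperones that place a replacement form of histone H3 into chromatin, and both are found at PML bodies. MORC3 is an ATPase with a zinc finger that reads methylated histone H3, TOPORS is a ligase for both ubiquitin and SUMO, and RNF4 is a ubiquitin ligase that recognises SUMO chains and targets SUMO-modified PML. BLM is a RecQ helicase that unwinds recombination intermediates, HIPK2 is a kinase of the p53 response, and CREBBP (CBP) is a histone acetyltransferase and co-activator.

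Peaks lay at the start of 7 of the 9 genes and were missing from Hipk2 and Crebbp. The sequences below come from these starts: for each of the 7 genes, the exon-free bases of a start peak nearest upstream of the gene's 5' end (at least 40 bases), and for the other 2 the 250 bases upstream of the 5' end. Some are a small part of a peak, such as 47 of 587 bp at Hira, and the Blm stretch is not from the peak over its 5' end. Whether the presence of a peak depends on these bases was not tested. They were read from GRCm38, the assembly that mm10 names, and run 5' to 3' in the direction of the gene. Capitals mark matches to 11 short words on either strand: NRF1 (GCGCATGCG), ETS (CCGGAAG), YY1 (AAGATGGCG), SP/KLF (GGGCGG), NFY (CCAAT), CRE (TGACGTCA), E-box (CACGTG), STAT (TTCNNNGAA), ISRE (GAAANNGAA), ZBTB33 (TCTCGCGAG) and ZNF143 (CTACAATTC).
Pml, chr9:58249888-58250119, minus strand: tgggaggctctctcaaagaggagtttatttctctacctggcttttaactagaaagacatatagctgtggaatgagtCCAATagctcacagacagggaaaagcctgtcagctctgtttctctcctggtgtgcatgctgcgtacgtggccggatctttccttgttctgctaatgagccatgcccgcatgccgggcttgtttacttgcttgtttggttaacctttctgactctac
Daxx, chr17:33909318-33909413, plus strand: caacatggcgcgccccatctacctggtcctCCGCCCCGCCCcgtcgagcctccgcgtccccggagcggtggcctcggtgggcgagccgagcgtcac
Hira, chr16:18876863-18876909, plus strand: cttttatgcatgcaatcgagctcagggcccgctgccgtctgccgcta
Morc3, chr16:93832021-93832120, plus strand: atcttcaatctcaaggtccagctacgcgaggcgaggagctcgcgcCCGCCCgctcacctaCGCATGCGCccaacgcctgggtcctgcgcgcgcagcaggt
Topors, chr4:40269890-40270037, minus strand: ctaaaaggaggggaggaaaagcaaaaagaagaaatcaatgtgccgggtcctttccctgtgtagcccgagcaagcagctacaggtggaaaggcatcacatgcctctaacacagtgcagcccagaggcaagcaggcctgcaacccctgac
Blm, chr7:80535374-80535491, minus strand: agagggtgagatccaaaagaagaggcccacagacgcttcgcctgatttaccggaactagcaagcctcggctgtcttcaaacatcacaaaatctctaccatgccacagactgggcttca
Rnf4, chr5:34336087-34336285, plus strand: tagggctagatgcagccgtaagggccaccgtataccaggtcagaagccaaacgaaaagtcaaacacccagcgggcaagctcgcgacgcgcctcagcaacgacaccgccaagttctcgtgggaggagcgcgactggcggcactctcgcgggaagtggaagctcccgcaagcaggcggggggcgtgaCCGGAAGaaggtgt
Hipk2 (no peak), chr6:38876166-38876415, minus strand: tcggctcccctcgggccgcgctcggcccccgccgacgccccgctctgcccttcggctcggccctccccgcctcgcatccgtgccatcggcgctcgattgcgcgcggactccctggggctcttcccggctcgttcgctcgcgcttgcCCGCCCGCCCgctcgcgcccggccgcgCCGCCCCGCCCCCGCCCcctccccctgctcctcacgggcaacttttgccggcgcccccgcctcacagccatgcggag
Crebbp (no peak), chr16:4213998-4214247, minus strand: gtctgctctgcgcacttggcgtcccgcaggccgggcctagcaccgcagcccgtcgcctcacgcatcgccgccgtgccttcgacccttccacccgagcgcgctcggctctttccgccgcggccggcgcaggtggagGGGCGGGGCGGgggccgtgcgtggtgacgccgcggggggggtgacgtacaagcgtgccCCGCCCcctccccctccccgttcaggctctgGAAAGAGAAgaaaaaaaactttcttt

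The 9 stretches differ in base composition. The Pml peak was 47.8% GC with a CpG observed/expected ratio of 0.377, while the Rnf4 stretch had 63.3% and 1.01 and the Daxx stretch 76.0% and 1.04. The sequence without a peak was GC-rich as well, at 79.6% and 1.15 for Hipk2 and 71.2% and 1.01 for Crebbp. Among the words, NFY occurred once in the Pml peak, a word held by 26.6% of windows of that length centred on all peaks of the list. The Morc3 stretch held the NRF1 word, which 0.536% of windows of its length held, and SP/KLF (18.2%). The Rnf4 stretch held the ETS word (7.09%), and Daxx held SP/KLF at 2 overlapping positions (17.7%). No word was found in the stretches of Hira, Topors and Blm. SP/KLF matched at 5 positions upstream of Hipk2 and 3 upstream of Crebbp, overlapping matches included, where 1 ISRE match was also found; the words SP/KLF and ISRE occur in 32.7% and 5.74% of 250-base windows centred on peaks. In RefSeq's 300-base promoters (GRCm38.p6; all 9 genes matched), SP/KLF was present for 8 of the 9 genes and in 35.7% of all promoters, NFY for 4 (37.4%), ETS for 3 (8.86%), CRE for Topors (1.79%) and NRF1 for Morc3 (1.75%). A gene counted when any of its RefSeq promoters held the word, and some genes have several, whereas the shares are per promoter. These matches are letters, and no factor was measured.

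A start counted as holding a peak when the peak shared at least 1 bp with the 1 kb on either side. By any annotated transcript start, 7 of 9 genes had a peak, beside 42.4% of all protein-coding genes. By the 5' end of the gene model alone the same count was 7, beside 38.4%. Annotation of further starts therefore added no gene. Every gene but Pml had a CpG observed/expected ratio above 0.6 over 500 bp either side of the 5' end. Peaks at the 5' end were common at such starts generally, at 64.4% of protein-coding genes with ratios of 0.6 to 0.8. The share was 71.1% at 0.8 to 1 and 62.6% at 1 or more. The 9 genes have 72 distinct transcript starts, of which 34 (47.2%) held a peak, beside 34.5% of the starts of all protein-coding genes. Neighbouring starts of a gene share peaks through the 1 kb window, so starts are not separate observations. The 34 starts rest on 12 peaks in 7 genes. The split followed distance from the 5' end. Of 38 starts within 1 kb of it, 33 held a peak (50.1% of such starts over all genes), and of 34 starts further inside the genes, 1 did (12.2% over all genes). That single inner start, of a noncoding Rnf4 transcript, lies 1030 bp from the 5' end and shares 2 peaks with the main starts. Among the 34 inner starts, 33 carry no transcript of the GENCODE basic set and 7 carry a protein-coding one.

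**Figure D1:**
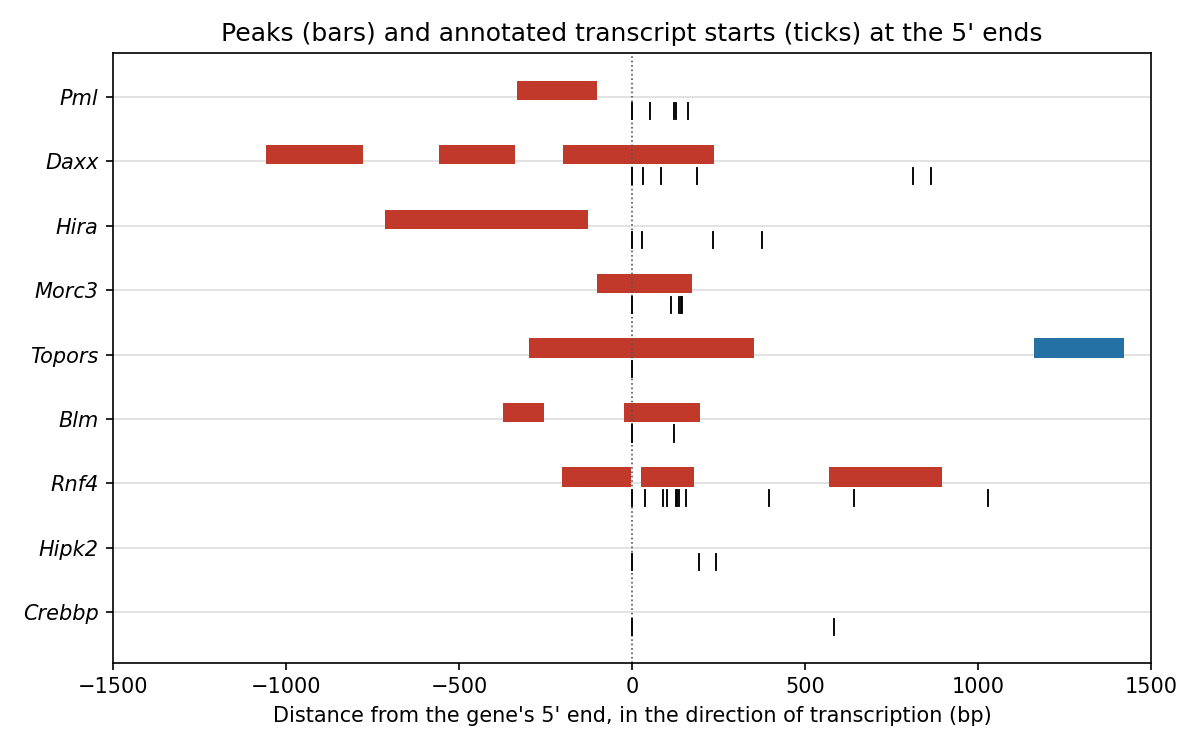
Peaks as bars and annotated transcript starts as ticks, by distance in bp from the 5' end of each of the 9 genes (x axis, negative values upstream; dotted line, the 5' end). Red bars are peaks at the gene's own start and the blue bar is the intronic peak of Topors; Daxx and Rnf4 show 3 red bars each, and Hipk2 and Crebbp show none.

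Pml is the gene of the tagged protein itself, and the site of the APEX insertion is not among the details used here. It spans chr9:58218076-58249786 on the minus strand and has 12 annotated transcripts from 8 distinct starts. Its start peak, chr9:58249888-58250119, is 232 bp wide, wider than 52.1% of the list, and ends 102 bp upstream of the 5' end without covering it. The 5 starts near the 5' end, which include those of Pml-201, Pml-202 and the other coding isoforms, share this peak. The other 3 starts, of the noncoding transcripts Pml-208, Pml-210 and Pml-212, lie 16391, 16401 and 19659 bp inside the gene and held no peak. The region round the Pml start was poor in CpG for a start with a peak. Over 500 bp either side its CpG observed/expected ratio was 0.340, the lowest of the 9 genes, and 16.1% of protein-coding genes with a ratio between 0.3 and 0.4 had a peak at the 5' end.

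Inside Pml, 3 more peaks lay over 1 kb from any start. One of 414 bp (chr9:58247045-58247458) sits on exon 2 of Pml-201, sharing 394 bp with it (95.2% of the peak), and its midpoint is coding sequence. A coding peak of this kind, over 1 kb from the gene's starts, was present at 1.67% of protein-coding genes and at 1 of the 9 described here. The other 2 are in intron 2 of Pml-201, at chr9:58243849-58243979 (131 bp) and chr9:58241806-58242040 (235 bp), 5.87 and 7.86 kb into the gene. The narrower of them is 69.5% repeat-masked in the reference and the wider 13.6%. Of protein-coding genes with 17.7 to 27.6 kb of intron, 14.9% had an intronic peak. The last stretch of the gene, including the inner starts, held no peak.

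A group of 8 peaks stood upstream of Pml in the intergenic interval beyond its neighbour Stoml1, which encodes a stomatin-like protein. The group runs over 8.94 kb (chr9:58271852-58280793), from 22.1 to 31.0 kb upstream of the Pml start, and its peaks cover 36.5% of that span. The nearest protein-coding start is that of Stoml1, and the next one on the far side, of the lysyl oxidase-like gene Loxl1, lies 32.4 kb beyond the group. The peaks range from 93 to 1361 bp. The widest, chr9:58278813-58280173, exceeds 99.7% of the list and has a CpG observed/expected ratio of 0.147, and 2 others, at chr9:58274107-58274625 and chr9:58275195-58275719, measure 519 and 525 bp. None of the 8 lies inside an annotated gene of any type. A span as short with as many peaks was found within 50 kb of 38 protein-coding genes (0.173%), Pml and genes sharing this group included, a measure defined after the group was seen. The masked share of these 8 peaks ran from 0 to 96.8% with a median of 43.1%, against 6.81% for all peaks. The midpoints of these peaks lie at least 11671 bp from every protein-coding start, and Stoml1 is nearer to them than Pml. The group is described here only because it falls within 50 kb of the Pml 5' end.

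In all, 15 peaks had their midpoint within 50 kb of the Pml 5' end, a number reached by 0.839% of protein-coding genes. Besides the start peak, the 3 inside the gene and the 8 upstream, they were a peak 3.43 kb upstream at the start of Stoml1, one at the paired starts of Islr and Islr2 45.6 kb downstream, and one of 142 bp beyond the 3' end. Without peaks that are at least 50% masked 11 were left, and with only peaks at least as wide as the median 9 were left.

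**Figure D2:**
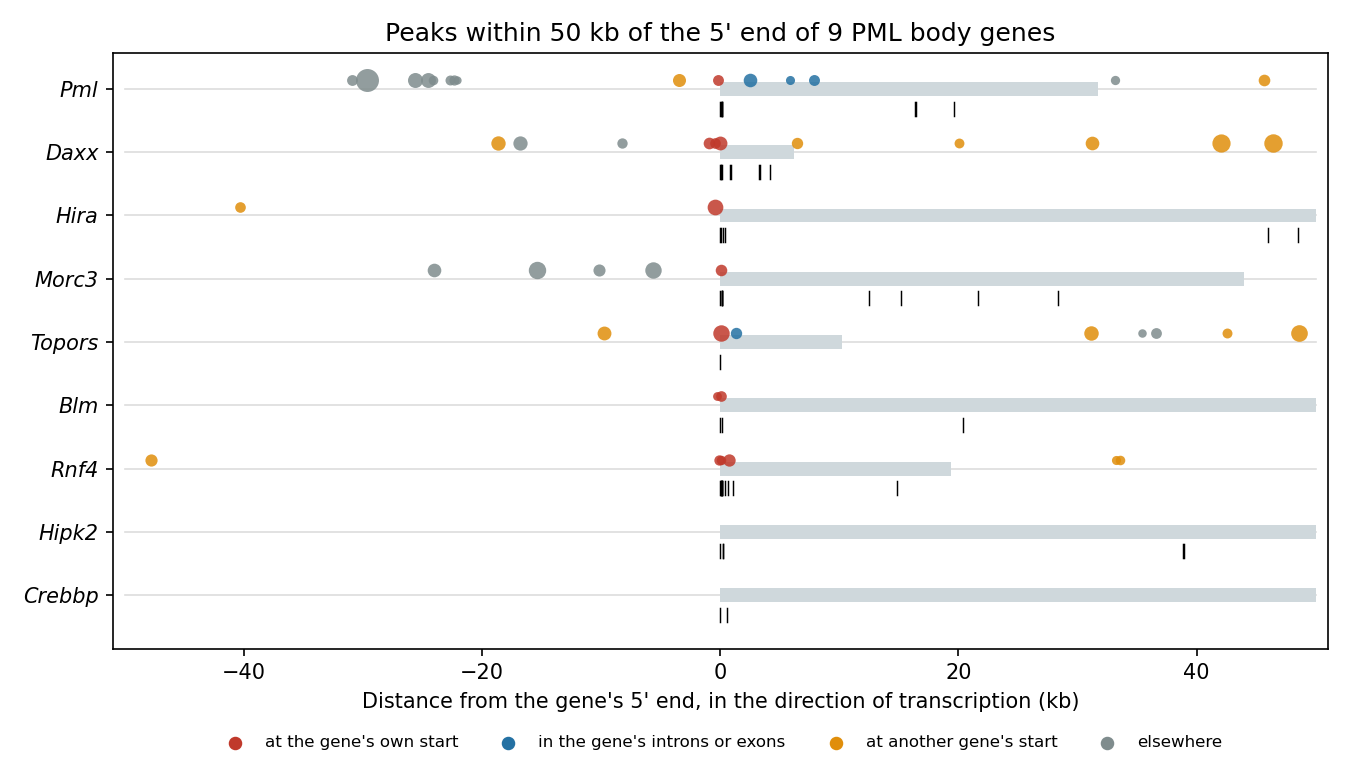
Peaks (dots, larger for wider peaks) within 50 kb of the 5' end of the 9 genes, by distance in kb along the direction of transcription; the pale bar is the gene model and ticks are annotated starts. Pml has 15 dots, 8 of them grey in a group upstream, while Hipk2 and Crebbp have none.

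The H3 chaperone genes differed from each other. Daxx (chr17:33909414-33915590, plus strand) had 3 start peaks: one of 436 bp over the 5' end (chr17:33909214-33909649) and 2 upstream of it, of 219 bp (chr17:33908857-33909075) and 281 bp (chr17:33908355-33908635). The upstream pair have their midpoints 212 and 683 bp from the nearest start of BC051226, a noncoding gene transcribed the other way. Another BC051226 start, 97 bp from that of Daxx, is covered by the widest of the 3 peaks. Of its 9 distinct starts 6 held a peak, and the 3 more than 3 kb inside this short gene did not. Its introns hold only 0.783 kb of sequence away from starts, with no peak. Of genes with 0.626 to 0.979 kb of such sequence, 0.816% had an intronic peak. At 3 start peaks Daxx stood with Rnf4 at a number reached by 5.04% of the protein-coding genes that have any start peak.

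Daxx lies in a row of closely spaced genes of the major histocompatibility region, and 11 peaks fell within 50 kb of its 5' end (2.87% of protein-coding genes have as many). Most of those away from Daxx stood at the starts of other genes. These were Kifc1, which encodes a mitotic motor; Tapbp with Zbtb22, the former encoding the antigen-loading factor tapasin; Rgl2; Wdr46 with Pfdn6; and the ribosomal protein gene Rps18 with B3galt4 and Vps52. The widest were those at B3galt4 (821 bp, chr17:33951080-33951900) and Vps52 (843 bp, chr17:33955457-33956299), wider than 98.1% and 98.3% of the list. The other 2 lay between genes, 16.8 kb and 8.26 kb upstream.

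Hira (chr16:18877037-18970309, plus strand) had a single start peak of 587 bp (chr16:18876323-18876909), the second widest of the 9 genes, which ends 128 bp before the 5' end. The midpoint of this peak is 7 bp from a start of Mrpl40, a mitochondrial ribosomal protein gene transcribed the other way, and the peak covers all 3 Mrpl40 starts, which lie 175, 428 and 498 bp from that of Hira. The 4 Hira starts within 375 bp of the 5' end share the peak through the 1 kb window, and the 4 noncoding starts 46036 to 64509 bp inside the gene held none. No peak fell in 79.7 kb of Hira intron. Of 1261 protein-coding genes with 63.8 to 99.7 kb of intron, 33.9% had an intronic peak. Within 50 kb there were 2 peaks, the other one at the starts of 2510002D24Rik and Gm28539, and 51.5% of genes have as many.

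Morc3 (chr16:93832121-93876073, plus strand) had a start peak of 273 bp (chr16:93832021-93832293) that covers the 5' end and all 5 starts in its first 146 bp. The 4 starts further in, 12503 to 28392 bp from the 5' end, and 31.2 kb of intron were without peaks; 18.8% of genes with 24.9 to 39.0 kb of intron had one. Upstream, 4 peaks were strung out towards Dop1b, at 5.68, 10.2, 15.4 and 24.0 kb. The nearest, chr16:93826120-93826769, is 650 bp wide, and the third, chr16:93816381-93817121, is 741 bp wide, so both exceed the start peak. Their CpG observed/expected ratios were 0.318 and 0.211, against 0.968 at the start. On the far side of the gene the first peak, of 400 bp, stood at Chaf1b, which encodes a subunit of the replication-coupled chaperone CAF-1. Within 50 kb of the Morc3 5' end there were 5 peaks in all, as many as 20.0% of genes have.

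Start peaks covered 652 bp at Topors and 677 bp at Rnf4, both ligase genes. Topors (chr4:40259601-40269850, minus strand) has 1 annotated transcript, and its start peak of 652 bp (chr4:40269498-40270149) was the widest at any start of the 9 genes, wider than 95.3% of the list. It covers the Topors 5' end and both starts of Smim27, which is transcribed the other way from points 66 and 271 bp within Topors. A second peak of 261 bp (chr4:40268428-40268688) has its midpoint in intron 1 and its nearer edge 1162 bp from the 5' end, with a CpG observed/expected ratio of 0.875. This peak counted as intronic by its midpoint, but it runs partly into a Topors exon and does not lie wholly inside the intron. Its edge also falls inside the 1 kb window of Smim27, so it was counted there too. Of genes with 4.46 to 6.96 kb of intron, 5.83% had an intronic peak. Of the 8 peaks within 50 kb of Topors, 5 lay in Ddx58, the gene of the RNA sensor RIG-I, at 31.2 to 48.6 kb downstream, and 1 at the start of the respiratory complex I gene Ndufb6. As many as 8 peaks occur at 7.54% of genes.

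Rnf4 (chr5:34336289-34355629, plus strand) had the most starts with a peak, 11 of 12, because its starts crowd close to the 5' end. The 3 peaks are 199 bp (chr5:34336087-34336285), 153 bp (chr5:34336314-34336466) and 325 bp (chr5:34336859-34337183). The 5' end itself lies between the first and second, 4 bp from the first and 25 bp from the second. The second has its midpoint in exon 1, and the third covers the start of a coding transcript 643 bp inside the gene. Their CpG observed/expected ratios were 1.01, 0.911 and 0.844. The start without a peak is 14827 bp inside. No peak fell in 10.2 kb of intron, and 10.4% of genes with 8.19 to 12.8 kb of intron had one. Within 50 kb there were 6 peaks (14.6% of genes have as many), of which the 3 away from Rnf4 were at Fam193a (2 peaks) and at the paired starts of Zfyve28 and Cfap99.

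Blm (chr7:80454733-80535119, minus strand) had 2 narrow peaks at its start, 218 bp over the 5' end (chr7:80534924-80535141) and 118 bp that begins 255 bp upstream (chr7:80535374-80535491). Both starts of its basic coding transcripts, Blm-201 and Blm-202, are covered by the first. The 8 inner starts and 58.7 kb of intron were without a peak, where 29.8% of genes with 46.9 to 73.3 kb of intron had one. These 2 were also the only peaks within 50 kb of the 5' end and in the whole gene with 50 kb on either side. Both are narrower than the median of the list (223 bp), so Blm had no peak at all once only wider peaks were kept.

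Hipk2 and Crebbp were the exceptions, and they were empty well beyond their starts. Hipk2 (chr6:38694390-38876165, minus strand, 181776 bp long) has 7 starts, 3 of them within 242 bp of the 5' end, and none held a peak. The nearest peak to its 5' end lies 145 kb downstream, in intron 8 of the 15-exon reference transcript, at chr6:38730581-38730693, and is 113 bp wide. Upstream, the first peak comes after 255 kb. The stretch of 401 kb between those peaks holds no other and contains the 5' ends of Hipk2, Parp12 and Tbxas1. As great a distance from the 5' end to a peak occurred for 16.2% of protein-coding genes. Hipk2 has 168 kb of intron, and 45.9% of the 660 genes with 134 to 210 kb of it had an intronic peak.

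Crebbp (chr16:4081328-4213997, minus strand) has 8 starts, none with a peak, and no peak in its 132670 bp. The 2 starts of basic coding transcripts, Crebbp-201 and Crebbp-205, lie 584 bp apart. The nearest peak to the 5' end is 54.2 kb upstream (chr16:4268153-4268289, 137 bp), and 29.5% of genes were as far from one. The peak-free stretch round the gene measures 190 kb and ends downstream in a peak of 493 bp at the start of Trap1, a mitochondrial chaperone gene (chr16:4077592-4078084). Among 1007 genes with 88.8 to 139 kb of intron 39.3% had an intronic peak. Within 50 kb of the 5' end neither Hipk2 nor Crebbp had a peak, whereas the other 7 genes did, beside 69.2% of all protein-coding genes. Start peaks count here too, so the 7 genes met this measure already through their start peaks.

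Both empty starts were the most GC-rich of the 9. Over 500 bp either side of the 5' end, GC content was 79.0% at Hipk2 and 75.4% at Crebbp, and between 50.9% (Pml) and 69.0% (Hira) at the 7 with a peak. Their CpG observed/expected ratios, 1.02 and 1.03, were also the highest. Over all protein-coding genes the share with a peak at the 5' end was 38.4%. It was 38.1% at a GC content of 50 to 55%, the range of Pml and Topors, and 54.4% at 55 to 60%. Higher ranges gave 63.2% at 60 to 65%, 61.6% at 65 to 70%, 53.6% at 70 to 75% and 48.4% at 75% or more. At a CpG observed/expected ratio of 1 or more, where Hipk2 and Crebbp fall, the share was 62.6%. Among genes with a CpG observed/expected ratio of at least 0.9 it was 74.6% at 60 to 65% GC and 48.3% at 75% or more, and these ranges were chosen after the values of the 9 genes were seen. Repeat-masked bases made up 8.89% of the Hipk2 window and 18.8% of the Crebbp window, so most of both windows was unmasked in the reference. The part of base composition in the missing peaks was not tested.

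**Figure D3:**
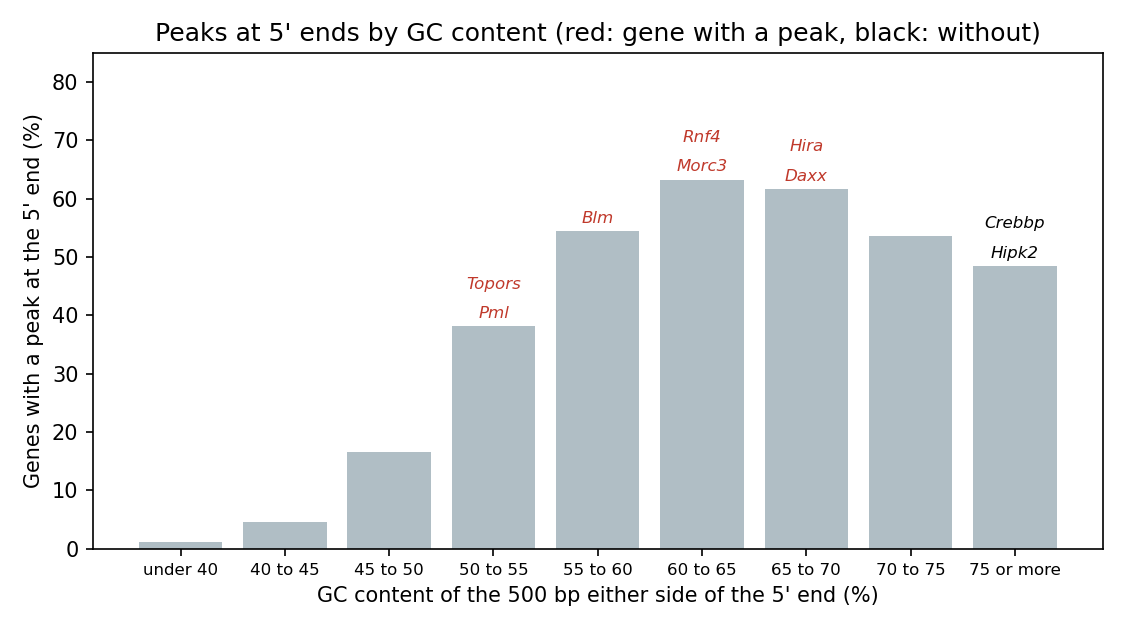
Share of protein-coding genes with a peak at the 5' end (bars, %) by GC content of the 500 bp either side (x axis, %), with the 9 genes written above their range in red where they have a peak and in black where they do not. The share is highest, 63.2%, at 60 to 65% GC and is 48.4% in the last range, which holds Hipk2 and Crebbp.

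Across the 9 genes, start peaks varied in how they sat on the start. The 5' end was covered in 4 of the 7 genes with a start peak (Daxx, Morc3, Topors and Blm) and uncovered in 3 (Pml, Hira and Rnf4), beside 59.8% covered among the 8427 genes with a peak at the 5' end. There were 12 start peaks in all, and 3 genes had at least 2, where 24.3% of genes with a start peak have that many. The widest start peak per gene had a median of 325 bp, against 281.5 bp over all genes with one. Of the 12 peaks, 2 were shared with another protein-coding gene, those of Hira with Mrpl40 and of Topors with Smim27.

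Introns contributed little. There were 4 intronic peaks, in Pml (2), Topors (1) and Hipk2 (1), so 3 of 9 genes had one, beside 14.5% of protein-coding genes, many of which are shorter. Per length, 487 kb of intron in the 9 genes gave 0.821 peaks per 100 kb, and 0.706 were found per 100 kb over all protein-coding genes. By peaks per 10 kb of intron the order was Topors (1.80), Pml (0.906) and Hipk2 (0.0596), each resting on 1 or 2 peaks. The Topors peak is intronic by its midpoint only, and 3 peaks remained when the whole peak had to lie inside an intron.

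The wider loci held 54 peaks when each gene model was taken with 50 kb on either side. Of these, 12 lay at the genes' own starts, 19 at the starts of other protein-coding genes, 16 between genes, 3 in own introns, 1 in an own exon and 3 inside other genes; the intronic peak of Topors is here among those at other starts. Within 50 kb of the 5' end the number ranged from 0 to 15 with a median of 5, while the median over all protein-coding genes was 2, with quartiles of 0 and 4. Pml, Daxx and Topors held 15, 11 and 8, Rnf4 and Morc3 6 and 5, Hira and Blm 2 each. Neighbouring genes share such peaks, so the counts are not independent of local gene spacing.

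**Figure D4:**
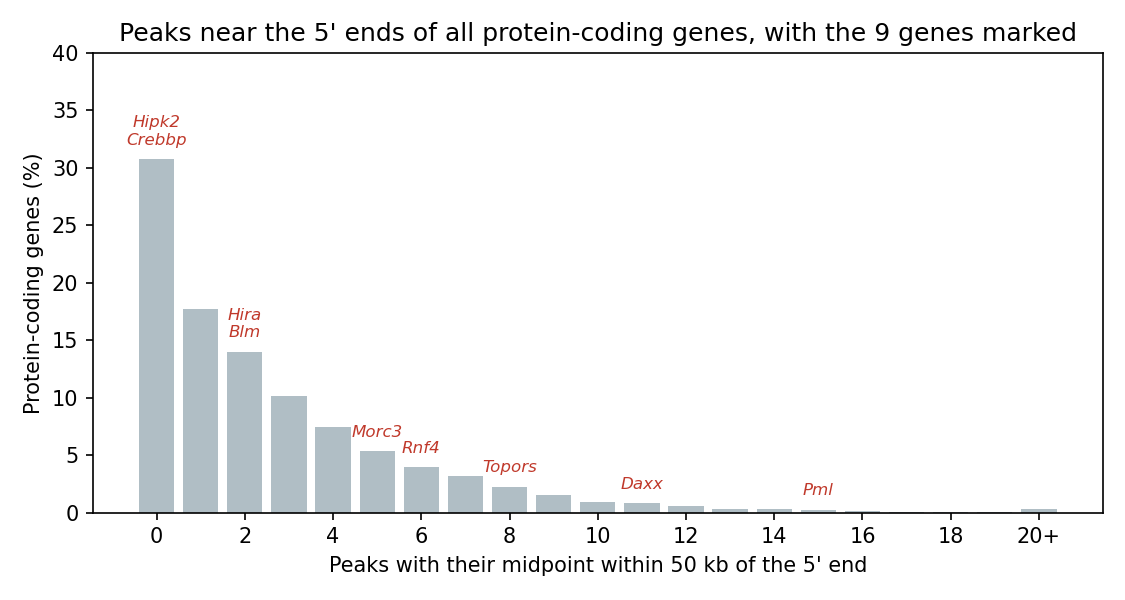
Share of all protein-coding genes (bars, %) by the number of peaks with their midpoint within 50 kb of the 5' end (x axis; the last bar holds 20 or more), with the 9 genes written above their number. Pml stands at 15 and Daxx at 11, in the thin upper part of the distribution, and Hipk2 and Crebbp at 0, the most common number.

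Other genes of PML bodies, of the same complexes and of the SUMO pathway, with 9 relatives of the 9 genes, were counted from a list of 42. Of these 42 genes, 30 had a peak at a start, and the relatives gave 4 of the 30. The share over all protein-coding genes was 42.4%, and base composition was not matched. Many of the 42 starts had CpG observed/expected ratios above 0.6. Among all protein-coding genes, a peak at the 5' end was present at 64.4% with ratios of 0.6 to 0.8. The share was 71.1% at 0.8 to 1 and 62.6% at 1 or more. The groups below are small, and whether they exceed genes of like base composition was not tested. The genes that work with BLM in dissolving recombination intermediates all had one (3 of 3: Top3a, Rmi1 and Rmi2, with widest start peaks of 364, 548 and 496 bp). Of the genes that work with HIRA, 4 of 5 did (Cabin1, Asf1a, Asf1b and, with 130 bp, Ubn2) and Ubn1 did not. Of the DAXX partners, H3f3a and H3f3b, the genes of the histone that DAXX and HIRA deposit, had start peaks of 600 and 795 bp, and Atrx on chromosome X had none. The H3f3b peak lies at inner starts, 2231 bp from the 5' end of its gene model.

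In the SUMO pathway 14 of 16 genes had a start peak (42.4% of all protein-coding genes), among them the SUMO protease gene Senp1 (626 bp) and Sumo2 (562 bp). Senp7 and Pias2 lacked one, and the Senp7 window is 97.7% repeat-masked. Among genes named as PML body residents 3 of 6 had one, a share near that 42.4%: the p53 gene Trp53 (up to 1027 bp), Mdm2 (195 bp) and Usp7 (141 bp). Sp100, Rb1 and Zbtb16 did not.

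Of the relatives of the 9 genes, 4 of 9 had a start peak, which is about the 42.4% of all protein-coding genes. Ep300, the paralogue of Crebbp, carried a peak of 679 bp over its 5' end. Hipk1 had a narrow one of 117 bp, while Hipk3 and Hipk4, like Hipk2, had none. The nearest peak to the Hipk3 5' end is 95727 bp away. Hipk4 was otherwise unlike Hipk2, with 8 peaks within 50 kb of its 5' end, the nearest 14846 bp away. The CpG observed/expected ratio at its 5' end was 0.289, against 1.02 at Hipk2. Rnf111, which encodes another SUMO-targeted ligase, had a start peak of 283 bp. Of the Morc3 relatives, Morc2a had one of 208 bp, and Morc1, Morc2b and Morc4 (on chromosome X) had none.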

How the data were processed

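Per the series' design text and the submitters' processing notes, Trimmomatic trimmed the reads, Bowtie2 2.3.5.1 placed them on repeat-masked mm10, and blacklisted and greylisted regions were removed with bedtools. Libraries were cut to 150 to 500 bp. The peak caller, threshold and merging rule were not given in the sources used here. Peak positions are as the authors deposited them: a list of 26496 peak positions without a score. Samples are in 2 groups of 2, and the list names none of them.

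Positions were joined to GENCODE M21 with Python 3.11.15 and pysam 0.24.0, and the counting was checked with peaks planted at known places. All peaks fell within GRCm38 chromosome lengths and did not overlap. An intronic peak had its midpoint outside every exon of the gene and over 1 kb from its starts. Genes of like intron length had 0.8 to 1.25 times the gene's own. Masking is lower case in RefSeq's copy of GRCm38, which may differ from the masking used in mapping. The genes named were the 9 genes, genes sharing their start peaks or nearest to the peaks described, and, from the list of 42, those without a start peak and examples picked after their values were seen. Members, lists and words were chosen with earlier results of these data known. No p-values were computed.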

Additional observations from a re-analysis of the deposited data

How the results depend on the processing

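Of 31 recounts over the 9 genes, 24 stayed within 1.5 times the value reported. Of 171 recounts for single genes 132 did, including those with no peak in either count. The number of genes with a start peak remained 7 with windows of 500 bp or 2 kb, with peak midpoints, with protein-coding or basic transcripts only and without mostly masked peaks, and was 6 with only peaks at least as wide as the median, which removed Blm. The transcript starts with a peak numbered 20 over protein-coding transcripts and 13 over basic ones, which are fewer starts. With only the wider peaks there were 2 intronic peaks, 31 within 50 kb of the 5' ends and 33 in the loci. Shorter distances gave 25 peaks within 20 kb of the 5' ends and 33 in the loci with 20 kb on either side. Pml held the most peaks within 50 kb, but Daxx held more within 20 kb (7 against 5) and within 100 kb (17 against 15). Hipk2 and Crebbp had no start peak in any setting, but no setting tried could have given them one. Every Hipk2 start lies at least 12567 bp and every Crebbp start at least 10511 bp from a peak, beyond the 2 kb window. No paired analysis was possible because the list holds no values per sample, so no replicate could be left out either. The list has no score, so width stood in for strength, and what depth limits is unknown.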

Other observations

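Among the 42 other genes, introns held peaks at 11, beside 14.5% of all protein-coding genes, many of which have shorter introns. Morc1, known for silencing transposons in the male germline, had 9 intronic peaks in 189 kb and no start peak, and 45.9% of genes with 134 to 210 kb of intron had at least 1. Usp7, which encodes the deubiquitinase of p53 and MDM2, had 6 in 85.3 kb beside a start peak of 141 bp, and 33.9% of genes with 63.8 to 99.7 kb of intron had at least 1. Next came 3 intronic peaks each in Rb1, the retinoblastoma gene, which had no start peak, in the SUMO-activating enzyme gene Sae1, with a start peak of 409 bp, and in Rnf111, with one of 283 bp. The intron ranges given for Morc1 and Usp7 are those drawn for Hipk2 and Hira, and the share of genes with as many intronic peaks was not counted. These genes were picked after their values were seen.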
